A study of Mus musculus with 3 samples.

Results

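Yap1 and 3 of its best-known target genes, Ccn1, Ccn2 and Ankrd1, were followed across single cells of a mouse esophageal organoid line. The 4 genes were matched by symbol among the 32287 features of the deposited matrix, and all 4 were found and passed every filter on low values. The line, called PC in the labels, was grown from the esophageal epithelium of mice with floxed Trp53 alleles. Trp53 was removed with an adenovirus carrying Cre recombinase and EGFP, and Cdkn2a was disrupted by CRISPR/Cas9, so every cell described here belongs to a Trp53 and Cdkn2a knockout culture. PC cells express Cas9 constitutively. A library of genetic barcodes was transfected into them, and after 3 passages live cells with red fluorescence (RFP) were sorted (about 1000000 sorted and about 20000 recovered, per the labels). A related line with a further Notch1 knockout, PCN, was not analysed here. There was 1 culture and 1 matrix, with no unedited control and no replicate, so each contrast below is between groups of cells of the same culture and carries counting error only.

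YAP, the protein of Yap1, is the transcriptional coactivator at the end of the Hippo kinase pathway. When the kinases Stk3 and Stk4 (MST) and Lats1 and Lats2 are active, YAP is phosphorylated and held in the cytoplasm. When they are not, YAP and its paralog TAZ (gene Wwtr1) enter the nucleus and bind TEAD factors on DNA. Ccn1 and Ccn2 encode secreted matricellular proteins that bind integrins, and Ankrd1 encodes an ankyrin-repeat protein of muscle sarcomeres and nuclei. All of them are widely read as reporters of YAP and TAZ activity, and in squamous epithelium the pathway is known for its part in basal cell growth. An mRNA count does not measure where the YAP protein is in a cell.

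The promoters are shown because TEAD factors, through which YAP reaches its targets, are known to bind the letters GGAATG or their reverse complement CATTCC. Each sequence is the 250 bases before the transcription start on the gene's own strand, from RefSeq on GRCm38.p6, with TEAD letters in capitals. Of the 4 genes, 3 had an entry in the promoter table; Ccn2 had none.
Yap1, chr9:8004597-8004846, minus strand: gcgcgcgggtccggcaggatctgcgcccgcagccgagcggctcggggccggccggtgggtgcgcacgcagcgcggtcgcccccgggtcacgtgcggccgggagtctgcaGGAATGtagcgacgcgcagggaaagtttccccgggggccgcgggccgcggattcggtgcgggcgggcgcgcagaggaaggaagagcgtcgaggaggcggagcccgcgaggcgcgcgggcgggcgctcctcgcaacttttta
Ccn1, chr3:145649986-145650235, minus strand: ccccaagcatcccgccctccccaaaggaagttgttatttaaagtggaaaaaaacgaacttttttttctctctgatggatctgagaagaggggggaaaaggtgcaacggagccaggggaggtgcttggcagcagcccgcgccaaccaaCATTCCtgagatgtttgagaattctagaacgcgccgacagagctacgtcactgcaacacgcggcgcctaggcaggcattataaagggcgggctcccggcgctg
Ankrd1, chr19:36119845-36120094, minus strand: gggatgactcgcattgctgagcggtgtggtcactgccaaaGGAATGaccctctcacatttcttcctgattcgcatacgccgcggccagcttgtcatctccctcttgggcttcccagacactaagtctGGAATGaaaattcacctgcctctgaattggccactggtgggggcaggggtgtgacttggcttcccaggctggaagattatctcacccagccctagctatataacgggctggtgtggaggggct
The Ankrd1 promoter held 2 matches, at 210 to 205 and 123 to 118 bases before the start, both as GGAATG. The Ccn1 promoter held 1 match as CATTCC, at 103 to 98 bases before the start, and a TATAAA at 25 to 20 bases before it. The Yap1 promoter held 1 match, at 141 to 136 bases before the start. Over all 32817 promoters of the same length, 12.6% held GGAATG on either strand and 12.4% held TATAAA on the gene's strand. The AP-1 letters TGANTCA (6.75% of promoters) and the CArG box of serum response factor (1.47%) were searched on both strands and matched in none of the 3 windows. Among 19 other YAP and TAZ targets, 13 had a promoter entry and 4 of these held the TEAD letters (Amotl2, Axl, Crim1 and Ptpn14). A match is a description of the letters, not a measured binding site.

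On GRCm38 in GENCODE M21, Yap1 (ENSMUSG00000053110) lies on chromosome 9 from 7931999 to 8004596 and Ccn1 (ENSMUSG00000028195) on chromosome 3 from 145646976 to 145649981, both on the minus strand. Ccn2 (ENSMUSG00000019997) lies on chromosome 10 from 24595442 to 24598683 on the plus strand, and Ankrd1 (ENSMUSG00000024803) on chromosome 19 from 36111961 to 36120099 on the minus strand. Ccn2 overlaps the antisense gene Gm15270 and Yap1 overlaps the antisense gene Gm20416. Whether the counting used strand is not given in the sources used here, and without strand reads from such pairs cannot be told apart. The matrix listed Gm15270 with 94 UMIs in epithelial-like and 29 in mesenchymal-like cells, against 4812 and 7775 for Ccn2.

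The matrix held 18116 barcodes, of which 14924 were kept, with medians of 2955 UMIs and 1499 genes per cell. A UMI (unique molecular identifier) is 1 counted RNA molecule. Leiden clustering, from which the 4 genes and all gene lists below were held out, gave 10 clusters. Of these, 8 were epithelial-like (12318 cells, 82.5%), cluster 4 was mesenchymal-like (1961 cells, 13.1%) and cluster 6 stayed unnamed (645 cells, median 1185 UMIs, 10.4% mitochondrial UMIs). Checked on the markers, cluster 4 had 89.0% of its marker UMIs from mesenchymal genes. The highest were Fn1 at 4296 CPM (UMIs of a gene per 1000000 UMIs) and Sparc at 1565 CPM. Both were also found in epithelial-like cells, at 363 and 153 CPM. Vim stood at 1027 CPM and Col1a1 at 287 CPM in cluster 4, against 5.29 and 2.64 CPM in epithelial-like cells. Of the 14 mesenchymal markers, 9 reached 10 CPM there, while Lum was at 0 UMIs and Col1a2, Pdgfrb, Cdh2 and Twist1 stayed under 3 CPM. Epithelial markers summed to 7002 CPM in epithelial-like and 934 CPM in mesenchymal-like cells, where all 12 were still detected. Immune markers summed to 7.43 and 13.9 CPM and endothelial markers to 1.45 and 0.591 CPM in epithelial-like and mesenchymal-like cells. In the same order, nerve and glia markers summed to 7.11 and 19.6 CPM, with Tubb3 at 4.76 and 17.0 CPM and called higher. Markers of differentiated squamous cells were not low and were higher in mesenchymal-like cells, at 232 and 505 CPM. Most of that came from Sprr1a (202 and 475 CPM). The 4 smooth muscle markers summed to 29.7 CPM in epithelial-like and 30.9 CPM in mesenchymal-like cells, nearly all from Smtn (29.2 CPM in each class). Of the others, Myh11 and Des had 6 and 1 UMIs in mesenchymal-like cells. Trp53 transcripts were present at 51.3 CPM in epithelial-like and 20.2 CPM in mesenchymal-like cells, and Cdkn2a transcripts at 549 and 1204 CPM. Tags outside an edited or deleted stretch do not check a knockout.

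Yap1 itself was sparse and differed little between the classes. It had 1604 UMIs over all kept cells, a level of 35.3 CPM (33.6 to 37.1, exact Poisson 95% interval; all intervals cover counting error only). Epithelial-like cells held 33.8 CPM (31.9 to 35.7) and mesenchymal-like cells 35.2 CPM (30.8 to 39.9), so the intervals overlapped. The ratio was 1.04 (0.903 to 1.20). After thinning each cell to 1500 UMIs, which puts cells at 1 depth, a Yap1 UMI was found in 5.07% of epithelial-like cells (4.67 to 5.49%) and 5.50% of mesenchymal-like cells (4.53 to 6.62%). The variance of thinned Yap1 counts was 1.01 times their mean in epithelial-like and 0.981 times in mesenchymal-like cells, the spread that counting alone gives.

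The targets showed a different picture. Ccn2, a matrix-associated protein linked to fibroblast activation, had 127 CPM (124 to 131) in epithelial-like cells and 1149 CPM (1123 to 1174) in mesenchymal-like cells, 9.03-fold higher (8.71 to 9.36). A thinned Ccn2 UMI was found in 15.1% of epithelial-like and 61.7% of mesenchymal-like cells. Ccn1, its close relative, had 182 CPM (178 to 187) and 392 CPM (378 to 408), 2.15-fold higher (2.06 to 2.25) in mesenchymal-like cells. Its thinned share was 21.2% against 36.4%. Ankrd1 had 47.6 CPM (45.4 to 49.8) and 69.7 CPM (63.6 to 76.3), a ratio of 1.47 (1.32 to 1.62). Its thinned share was 5.66% against 7.74%, with binomial intervals of 5.24 to 6.11% and 6.58 to 9.02%. A call required that the levels differ 2-fold or more, that the larger reach 10 CPM and that the Poisson intervals lie apart. By this rule 2 of the 4 genes, Ccn2 and Ccn1, were called higher in mesenchymal-like cells and none lower, where 10.5% of 9083 features were called higher and 9.86% lower. Yap1 and Ankrd1 were not called.

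Free RNA in the droplets can give a UMI in a cell that does not express a gene, so the shares were set beside genes of the other class. Vim, which epithelial cells should largely lack, was found in 0.641% of thinned epithelial-like cells against 74.7% of mesenchymal-like cells. Krt5, which mesenchymal cells should largely lack, was found in 5.14% of mesenchymal-like against 61.5% of epithelial-like cells, with median depths of 3341 and 2955 UMIs. For every Vim UMI, epithelial-like cells held 24.1 Ccn2, 34.5 Ccn1, 6.38 Yap1 and 8.99 Ankrd1 UMIs, while mesenchymal-like cells held 1.12, 0.382, 0.0342 and 0.0679. The proportion to Vim thus differed between the classes for all 4 genes. In mesenchymal-like cells the share with Ankrd1 (6.58 to 9.02%) lay above that with Krt5 (4.20 to 6.22%), and the share with Yap1 (4.53 to 6.62%) overlapped it. Krt5 stood at 744 CPM in epithelial-like cells and Yap1 and Ankrd1 at 33.8 and 47.6 CPM, so its share is no floor for them. The level of Krt5 was 15.3-fold lower in mesenchymal-like cells (744 against 48.7 CPM), and Yap1 had 33.8 against 35.2 CPM. The part of free RNA in the levels of the 4 genes was not tested.

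**Figure D1:**
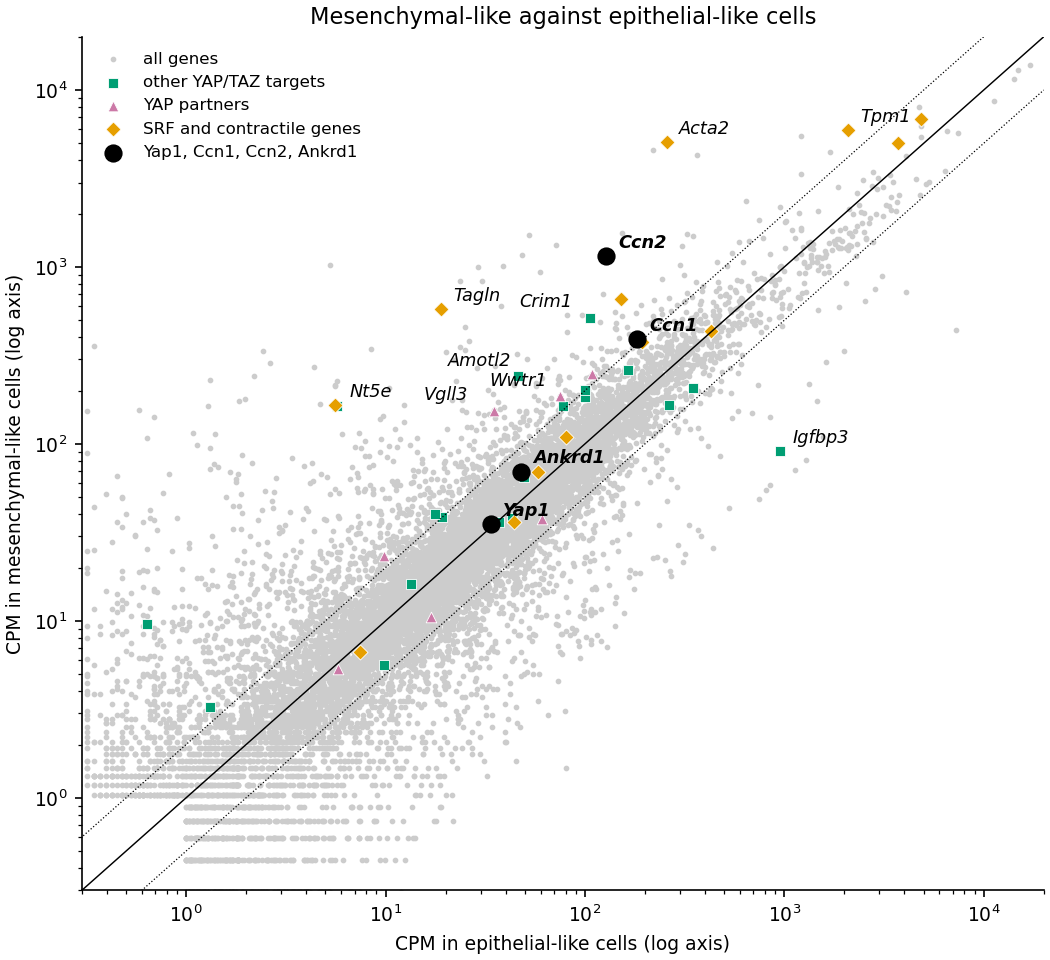
Level of every gene in epithelial-like (x axis) and mesenchymal-like cells (y axis), both in CPM on log axes, with the 4 genes in black and 3 gene lists in colour; genes below the axes' lower ends are not drawn. The solid line marks equal levels and the dotted lines a ratio of 2 in either direction: Ccn2 (127 against 1149 CPM) lies far above them, Ccn1 just above, and Ankrd1 and Yap1 between them.

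Cluster by cluster, Ccn2 separated cluster 4 from all others, while Yap1 and Ankrd1 did not. Ccn2 stood at 1149 CPM in cluster 4 and between 26.4 and 162 CPM in the other 9 clusters. Next came cluster 2 (led by Krt7, a keratin of simple epithelia) at 162 CPM and cluster 7 (led by Sncg and Krt14) at 158 CPM. The intervals of neighbouring clusters overlapped from cluster 2 down to cluster 5 (71.5 CPM), and cluster 6 lay apart at 26.4 CPM (16.5 to 39.9). Ccn1 was ordered differently, and clusters 4, 2 and 3 each had an interval above those of all clusters below them. Its level was 392 CPM in cluster 4, 278 CPM (266 to 291) in cluster 2 and 204 CPM (164 to 252) in cluster 9, followed by clusters 7, 1, 10 and 3 with overlapping neighbours (190.0 down to 155 CPM). Clusters 5, 8 and 6 were lowest at 128, 114 and 112 CPM.

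Ankrd1 followed neither of them. Among named clusters it was highest in cluster 5, led by Ltf and Lcn2, which encode secreted antimicrobial proteins, at 82.6 CPM (73.6 to 92.4), next to 69.7 CPM in cluster 4 and 64.6 CPM in cluster 1, led by prolactin-family genes and Sprr1b. Clusters 2 and 3 held 29.6 and 24.8 CPM. Clusters 7 and 8, which both have Sncg among their leading genes, nearly lacked it: cluster 7 had 6 UMIs (4.69 CPM, 1.72 to 10.2) and cluster 8 (led by Prl2c5 and Ptn) had 4 UMIs (4.74 CPM, 1.29 to 12.1), with intervals below those of the other 8 clusters. The same clusters held Ccn2 at 158 and 147 CPM, near the level of cluster 1 (144 CPM). Among named clusters, cluster 5 held the least Yap1 (25.1 CPM) and cluster 9 the most (58.0 CPM, 37.6 to 85.7). All neighbours in that order overlapped, but clusters further apart in it did not all do so. Cluster 2 (48.4 CPM, 43.5 to 53.7) lay above clusters 1 and 5 (27.6 and 25.1 CPM), whose intervals ended at 30.2 and 30.8 CPM. The interval of cluster 9 lay above those of clusters 1 and 5 too. The unnamed cluster 6 had the highest Yap1 (107 CPM, 85.7 to 131) and Ankrd1 (109 CPM, 87.8 to 134) from 89 and 91 UMIs. Its median of 1185 UMIs and 10.4% mitochondrial UMIs stand beside these values, and their part in them was not tested.

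**Figure D2:**
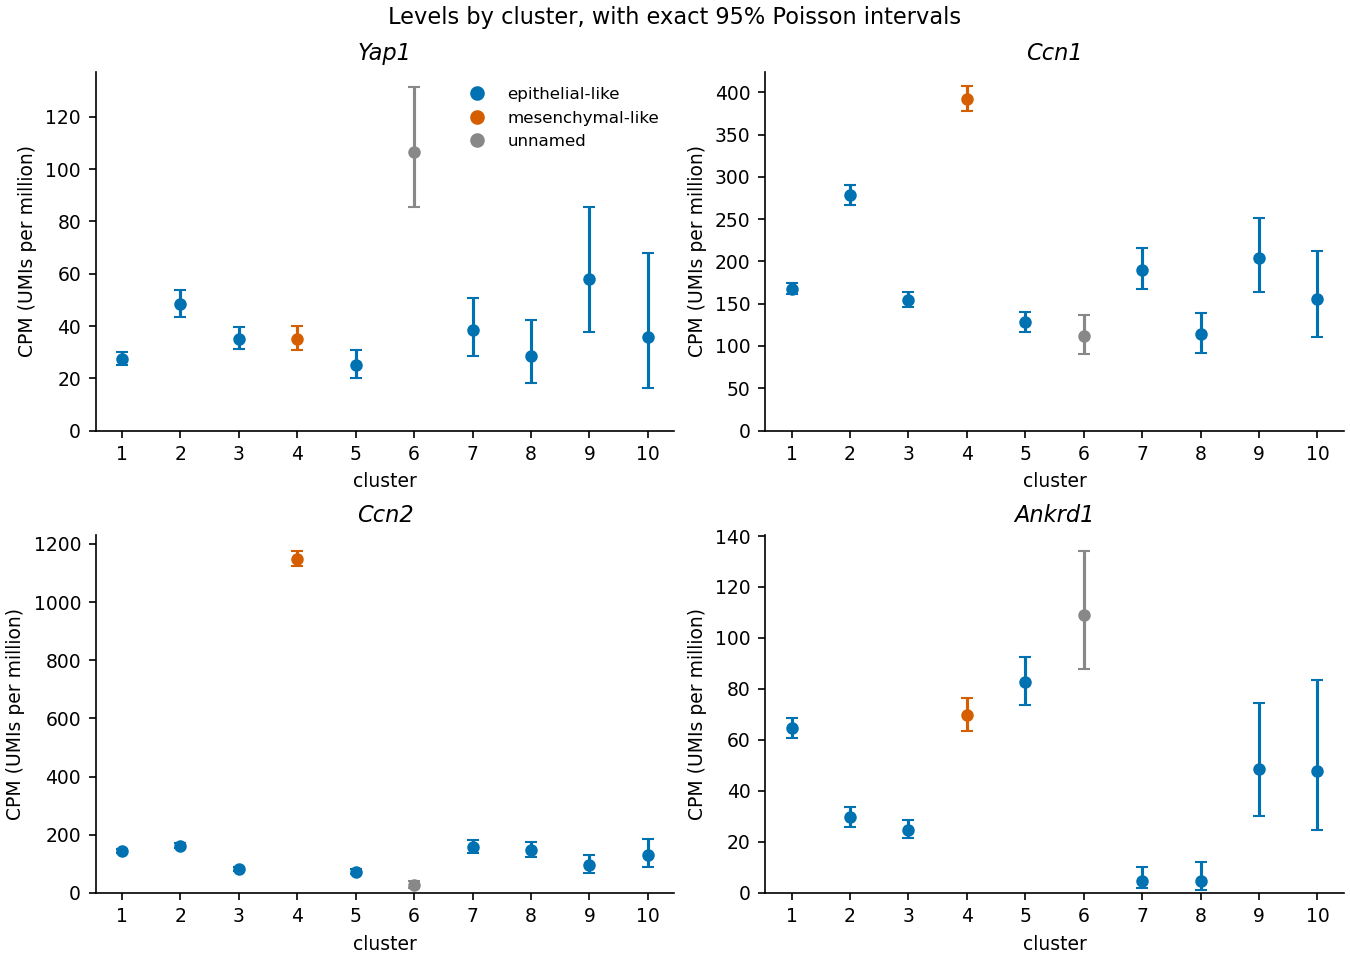
Level of each gene (CPM, y axis) in the 10 clusters (x axis), with exact 95% Poisson intervals as bars and colours for the class of the cluster. Ccn2 reaches 1149 CPM in mesenchymal-like cluster 4 and at most 162 CPM elsewhere, whereas Ankrd1 is lowest in clusters 7 and 8 (4.69 and 4.74 CPM).

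Within the epithelial-like cells, the dividing cells of cluster 3 (2097 cells, 9 of 10 cell-cycle markers detected) had less of the 3 targets than the other epithelial-like cells. Ankrd1 was at 24.8 CPM (21.4 to 28.5) in cluster 3 and 53.6 CPM (51.0 to 56.3) in the others, 2.16-fold lower (1.86 to 2.52). Ccn2 was at 81.8 against 139 CPM, 1.70-fold lower (1.57 to 1.85), and Ccn1 at 155 against 190.0 CPM, 1.23-fold lower (1.15 to 1.30). Yap1 was at 35.2 against 33.4 CPM, a ratio of 1.05 (0.919 to 1.20). Single clusters outside cluster 3 did not all hold more of the targets. Ccn1 was lower in clusters 5 and 8 (128 and 114 CPM), and Ankrd1 in clusters 7 and 8 (4.69 and 4.74 CPM). The interval of Ccn2 in cluster 5 (71.5 CPM) overlapped that of cluster 3. Only Ankrd1 met the rule for a call, in a contrast where 5.75% of 8706 features were called higher and 1.27% lower in dividing cells. Of the 6 partners of YAP, 21 Hippo genes and 16 other targets that reached the CPM floor, none was called in either direction here.

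Among the partners through which YAP works, 8 were listed and 6 reached 10 CPM in either class. TAZ was higher in mesenchymal-like cells although Yap1 was not: Wwtr1 stood at 75.2 CPM in epithelial-like and 186 CPM in mesenchymal-like cells, 2.47-fold higher (2.31 to 2.64). The DNA-binding partners Tead1 (108 against 248 CPM, 2.29-fold) and Tead2 (9.81 against 23.3 CPM, 2.38-fold) and the TEAD cofactor Vgll3 (35.0 against 154 CPM, 4.39-fold) were also called higher. Tead3 and Vgll4, a TEAD-binding repressor, had ratios of 0.622 and 0.622 and were not called. Thus 4 of the 6 partners at the floor were called higher and none lower. Over all 9083 features at the floor, 10.5% were called higher and 9.86% lower, and the counts of the lists below stand beside the same shares. The median log2 ratio of the 6 was 1.22, against -0.02 over the 9083 features that reached the floor.

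The Hippo genes upstream of YAP showed no common direction. Of 24, 22 reached the floor, 3 were called higher and 2 lower, near the shares over all features, with a median log2 ratio of 0.02. The kinases Stk3 (61.4 against 63.4 CPM) and Stk4 (32.0 against 32.1 CPM) had ratios of 1.03 and 1.00. The kinase gene Lats1 had a ratio of 1.52, Lats2 (19.3 against 38.6 CPM) narrowly missed the 2-fold needed for a call, and the tumour suppressor Nf2 was 1.52-fold lower without a call. Called higher were Amotl2, an angiomotin that binds YAP (46.4 against 241 CPM, 5.19-fold), Frmd6 (2.37-fold) and the protocadherin Fat4, whose ratio of 114 (47.3 to 359) rests on 5 epithelial-like UMIs. Called lower were the scaffold Wwc1 (73.4 against 33.2 CPM, 2.21-fold) and the protocadherin Fat1 (279 against 127 CPM, 2.19-fold).

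Of 19 other genes known as YAP and TAZ targets, 16 reached the floor, 6 were called higher in mesenchymal-like cells and 1 lower, with a median log2 ratio of 0.77. The largest ratio belonged to Nt5e, the ectonucleotidase CD73, at 5.74 against 165 CPM (28.7-fold, 24.8 to 33.3). Amotl2 (also in the Hippo list), Crim1 (106 against 517 CPM, 4.88-fold), Dock5 (2.27-fold), Tgfb2 (2.12-fold) and Gadd45a (2.02-fold) followed. Without the dividing cluster Tgfb2 and Gadd45a were no longer called and Lats2 was. Igfbp3, which encodes a binding protein for insulin-like growth factors, went the other way, at 951 CPM in epithelial-like and 91.1 CPM in mesenchymal-like cells, 10.4-fold lower (9.64 to 11.3). F3 (tissue factor, 1.85), Axl (1.30) and Ptpn14 (0.973) had smaller ratios and were not called. The 4 targets with TEAD letters in the promoter therefore included called (Amotl2, Crim1) and uncalled genes (Axl, Ptpn14).

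Ccn4 and Ccn5, relatives of Ccn1 and Ccn2, stood even further apart between the classes. Ccn5 had 8 UMIs in epithelial-like and 1229 in mesenchymal-like cells, a ratio of 859 (434 to 1993), and was among the leading genes of cluster 4, although it was held out of the clustering. Ccn4 stood at 23.6 against 352 CPM (14.9-fold, 13.8 to 16.1). Of the 9 listed receptors of CCN proteins, all at the floor, 4 were called higher and 1 lower, with a median log2 ratio of 0.73. The integrin chains Itgb3 (2.14 against 77.8 CPM, 36.4-fold), Itga5 (5.10 against 65.1 CPM, 12.8-fold) and Itgb5 (2.71-fold) and the endocytic receptor Lrp1 (2.70-fold) were higher. Itga6, the integrin chain of epithelial hemidesmosomes, was 3.49-fold lower (211 against 60.6 CPM).

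Genes of the serum response factor (SRF) and contractile programme, which share several targets with YAP, had calls in 1 direction only. Of 15, 14 reached the floor, 7 were called higher and none lower, with a median log2 ratio of 1.24. Acta2, smooth muscle actin, stood at 257 against 5072 CPM (19.7-fold, 19.3 to 20.2) and Tagln, an actin-binding protein of contractile cells, at 18.9 against 576 CPM (30.5-fold). Actg2 had 3 UMIs in epithelial-like and 577 in mesenchymal-like cells, a ratio of 1075 (366 to 5227), and Cnn1 had 7 and 166, a ratio of 133 (62.9 to 335). Myl9 (29.4-fold), Vcl (4.34-fold) and Tpm1 (2.85-fold) were called as well, while the cytoplasmic actins Actb (1.42) and Actg1 (1.34) were not. Of 13 TGF-beta genes, 5 were called higher and 2 lower, with a median log2 ratio of 0.88. Among the higher ones were the ligand genes Tgfb3 (6.05-fold), Tgfb1 (2.26-fold) and Tgfb2 (2.12-fold). The receptor genes went both ways: Tgfbr2 was called higher (66.6 against 139 CPM, 2.09-fold) and Tgfbr1 lower (2.43-fold). Tgfbi (3.04-fold) was lower too.

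Ccn1 is itself an immediate early gene, induced within minutes by serum and stress, and as a list the immediate early genes lay lower in mesenchymal-like cells. Of 15, 13 reached the floor, none was called higher and 6 were called lower in mesenchymal-like cells, with a median log2 ratio of -0.98. Egr1 was at 109 against 29.4 CPM (3.70-fold lower), Ier2 at 141 against 51.1 CPM (2.76-fold lower), Atf3 2.57-fold, Fos 2.55-fold, Klf6 2.45-fold and Btg2 2.30-fold lower. Not all lay on this side. Dusp1, a phosphatase of MAP kinases, had a ratio of 1.67 (1.47 to 1.89) and Ier3 one of 1.35 (1.29 to 1.41), both higher in mesenchymal-like cells without a call. Fosb (2.98) and Fosl1 (3.30) were higher too, at levels under the floor in both classes.

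Cells of each class also varied among themselves in the targets. In mesenchymal-like cells the variance of thinned Ccn2 counts was 2.57 times the mean, with up to 15 UMIs in a cell, and the 10% of cells with the most held 38.1% of the Ccn2 UMIs. In epithelial-like cells this ratio was 1.47, with up to 7 UMIs. The top 10% held 74.2%, where only 1699 of 11230 cells had any Ccn2 UMI. For Ccn1 the variance was 1.65 times the mean in mesenchymal-like and 1.42 times in epithelial-like cells, and for Ankrd1 1.53 and 1.42 times. The ratios of Yap1 lay at 1.01 and 0.981. For the same relative spread this ratio falls toward 1 with the mean, so it does not rank genes or classes of unlike level. Mean Yap1 was 0.0522 UMIs in epithelial-like and 0.0561 in mesenchymal-like cells, against 0.199 and 1.70 for Ccn2. Ankrd1 was nearest to Yap1 in level (0.0693 and 0.101) and had the higher ratio in both classes.

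Ccn1 and Ccn2 went together within a class and Ankrd1 more weakly with them, while the r of Yap1 with them was close to 0. Pearson correlations were taken over thinned cells of 1 class on log1p counts, as descriptions of cells of the same culture. In mesenchymal-like cells (n = 1926), r was 0.267 between Ccn1 and Ccn2, 0.138 between Ccn2 and Ankrd1 and 0.0759 between Ccn1 and Ankrd1. In epithelial-like cells (n = 11230) the same pairs had r of 0.119, 0.0509 and 0.0652. Such values are small because most cells hold 0 or 1 UMI, so each was set beside the r of all 4578 or 4584 genes that averaged 0.05 thinned UMIs or more per cell of the class. With Ccn2, the 99th percentile over genes was 0.147 in mesenchymal-like and 0.0429 in epithelial-like cells. With Ccn1 it was 0.0872 and 0.0571. Ankrd1 lay below both percentiles in mesenchymal-like cells (rank 57 with Ccn2 and 73 with Ccn1) and above both in epithelial-like cells (rank 31 with each). With Ankrd1, the 99th percentile was 0.0665 in mesenchymal-like and 0.0415 in epithelial-like cells, and Ccn1 and Ccn2 lay above it in both. Among genes ordered by r with Ankrd1, Ccn2 ranked 2 and Ccn1 27 in mesenchymal-like cells. In epithelial-like cells they ranked 26 and 10. Ccn1 was the gene with the highest r to Ccn2 in epithelial-like cells and ranked 9 in mesenchymal-like cells, where Ccn2 in turn ranked 1 with Ccn1. Yap1 had r of -0.0211, -0.0282 and -0.0074 with Ccn1, Ccn2 and Ankrd1 in mesenchymal-like cells and 0.0229, 0.0118 and -0.0121 in epithelial-like cells, and the highest r of any gene with Yap1 was 0.0944 and 0.0436. With Ccn1 in epithelial-like cells the r of Yap1 lay above the 95th percentile over genes (0.0207), but at 1000 thinned UMIs it was 0.00395. In sparse counts such weak values are no finding, in either direction.

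Put as shares, a Ccn2 UMI was found in 74.5% of mesenchymal-like cells with a Ccn1 UMI and in 54.4% of those without. In epithelial-like cells the shares were 22.9% and 13.0%. The Ccn1 and Ccn2 pair had a positive r in 7 of the 8 epithelial-like clusters, from 0.0506 in cluster 5 to 0.182 in cluster 7. In cluster 10, with 74 thinned cells, r was -0.05. Without mesenchymal-like cells that held a UMI of the epithelial gene Epcam, r was 0.276 (n = 1704).

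Most of the genes with the highest r to Ccn2 in mesenchymal-like cells were genes of the actin cytoskeleton. In mesenchymal-like cells the 10 with the highest r were Acta2 (0.458), Actg1 (0.408), Tpm1 (0.396), Myl6 (0.348), Actb (0.330), Tmsb4x (0.314), Cald1 (0.277), F3 (0.268), Ccn1 (0.267) and Actn1 (0.258). For Ccn1 they began with Ccn2 (0.267), Actg1 (0.214), F3 (0.201), Acta2 (0.197), Cald1 (0.183) and Vcl (0.173), followed by Pdlim5, Fhl1, Actb and Cavin3. Of the 12 SRF and contractile genes with enough counts, 10 lay above the 95th percentile of all genes with Ccn2 (median r 0.219) and 11 with Ccn1 (median r 0.0969). Of 15 other YAP and TAZ targets, 4 did so with Ccn2 (F3, Crim1, Amotl2 and Tgfb2), and the median r of the 15 was -0.0073. These genes differ in level, with thinned means of 7.43 UMIs for Acta2, 8.64 for Tpm1 and 0.264 for F3. The percentiles were not matched for level, and r depends on it in sparse counts, so the 2 lists cannot be ranked by these counts. Of 7 immediate early genes, none did so with Ccn2 and Klf6 did so with Ccn1 and Ankrd1. In epithelial-like cells Jun and Klf6, of 9 with enough counts, did so with Ccn1 and with Ccn2.

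In epithelial-like cells 10 SRF and contractile genes had enough counts. Of the called ones these included Acta2, Vcl and Tpm1, but not Tagln, Actg2, Cnn1 and Myl9, which were too sparse there. Of the 10, 9 lay above the 95th percentile with Ccn1 and 7 with Ccn2. Beside them stood genes of secreted and matrix proteins such as Thbs1, Tnc and Fn1. The highest r with Ccn1 were those of Actg1 (0.142), Cald1 (0.142), F3 (0.133), Tpm1 (0.131) and Edn1 (0.126), followed by Ccn2, Acta2, Fn1, Actb and Phlda1. With Ccn2 they were those of Ccn1 and Thbs1 (0.119 each), Cald1 (0.108), Wfdc18 (0.102), Tnc and Actg1 (0.0952 each), then Tpm1, Fn1, Tmsb4x and Inhba. Ankrd1 had another company there, with Cldn4, a tight junction protein (0.0909), Actg1 (0.0861), Ly6a (0.0828), Thbs1 (0.0813), Anxa1, Clu, the chemokines Ppbp and Cxcl5, Vmp1 and Ccn1 (0.0652). In mesenchymal-like cells it stood with Inhba, an activin subunit (0.139), Ccn2 (0.138), Edn1 (0.109), Tagln (0.108), Denr, Itgb1, Acta2, Picalm and Fam129a among the 10 highest. For Yap1 the 10 highest were Aplp2, Fn1, Xpo7, Cdk19, Tcf12, Gsk3b, Plekhg3, Lama3, Arid4b and Strn3 in epithelial-like cells, with r from 0.0355 to 0.0436. In mesenchymal-like cells they included Chd6, Srgap1, Ankrd10, Psd3, Mmp12, Naa20, Sesn3, Tgfb1 and Glyr1, with r from 0.0703 to 0.0944.

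**Figure D3:**
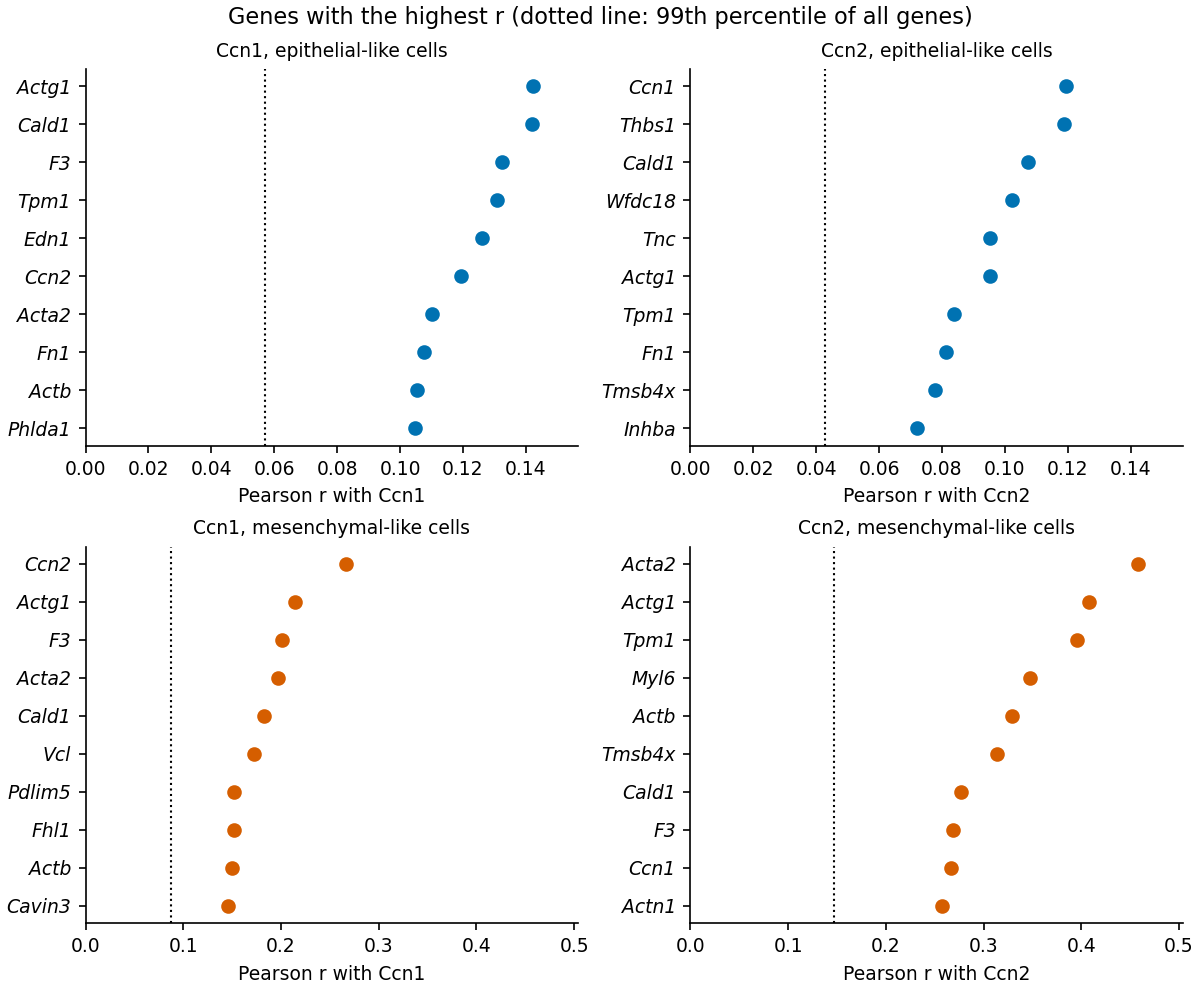
The 10 genes with the highest Pearson r (x axis) with Ccn1 or Ccn2 in epithelial-like (top row) and mesenchymal-like cells (bottom row), over thinned cells; the dotted line is the 99th percentile over all genes, and the rows differ in scale. With Ccn2 in mesenchymal-like cells, Acta2 (0.458), Actg1 (0.408) and Tpm1 (0.396) lie furthest right.

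Grouping cells by their Ccn2 UMIs shows the size of this relation. In mesenchymal-like cells with 0, 1, 2 to 3 and 4 or more thinned Ccn2 UMIs (737, 423, 436 and 330 cells), mean Ccn1 was 0.356, 0.541, 0.674 and 1.08 UMIs a cell. Ankrd1 went from 0.0543 through 0.0922 and 0.122 to 0.191. Acta2 went from 3.98 through 7.01 and 9.76 to 12.6, and Actg1 from 5.22 to 10.7. Vim differed less, from 1.49 to 1.82. The epithelial keratin gene Krt5 went down, from 0.0868 through 0.0638 and 0.0596 to 0.0212, and the part of epithelial RNA in these groups was not tested. Yap1 had no order, with 0.0638, 0.0615, 0.0413 and 0.0515 UMIs per cell. In epithelial-like cells with 0, 1 and 2 to 3 Ccn2 UMIs (9531, 1305 and 364 cells), Ccn1 was 0.255, 0.408 and 0.588, Ankrd1 0.0626, 0.0989 and 0.137 and Acta2 0.384, 0.525 and 0.871. The 30 epithelial-like cells with 4 or more held 0.367 Ccn1 UMIs (0.183 to 0.656), a group too small to place.

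**Figure D4:**
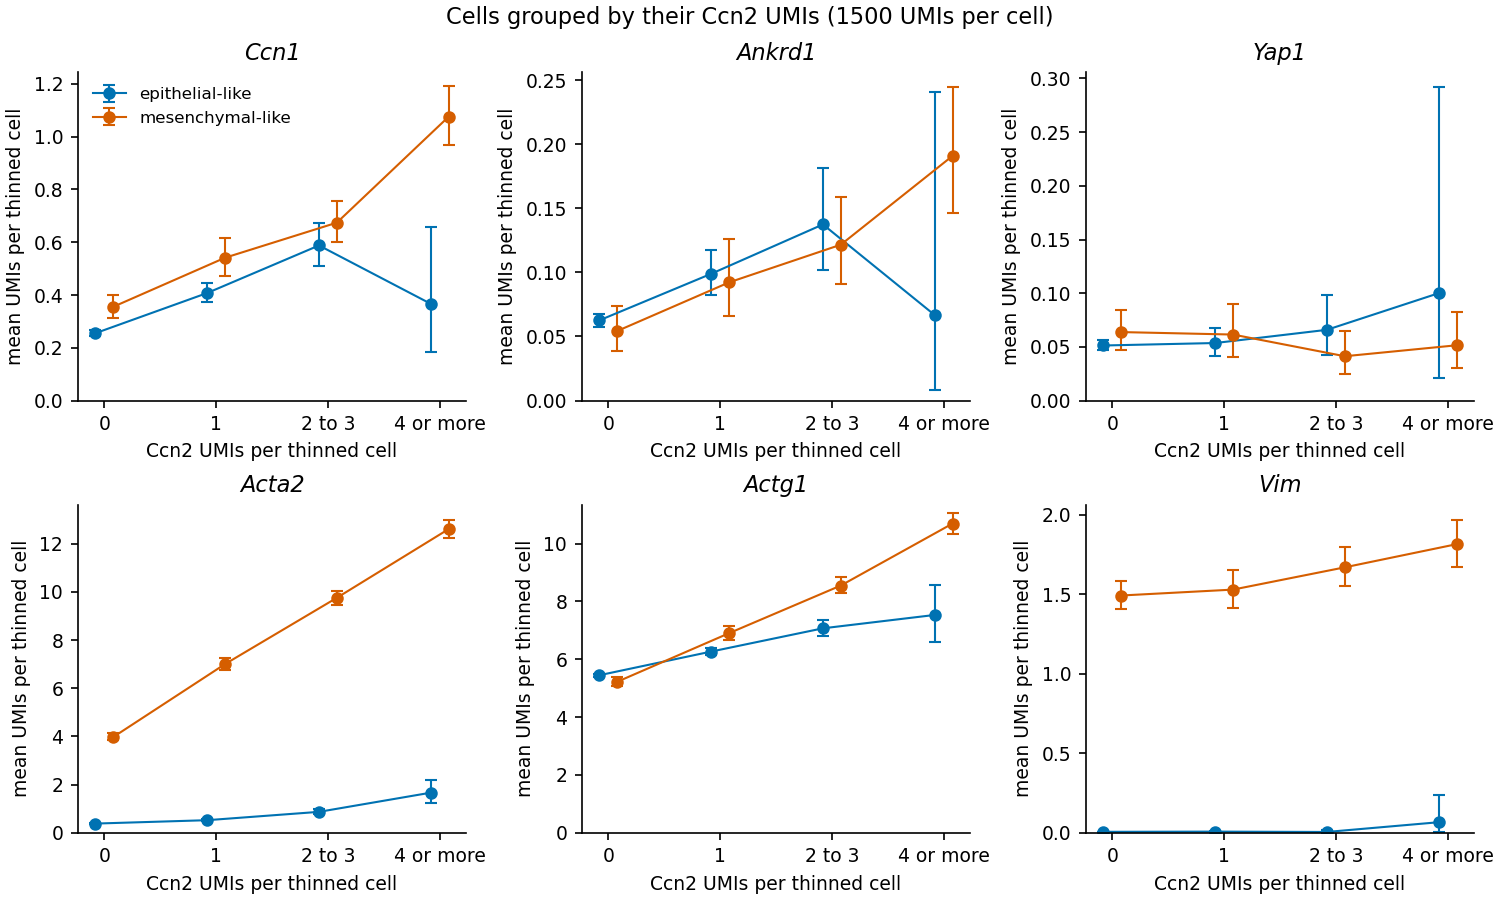
Mean UMIs per cell at 1500 UMIs (y axis) of 6 genes in cells grouped by their own Ccn2 UMIs (x axis), with exact 95% Poisson intervals, in epithelial-like and mesenchymal-like cells. Ccn1, Ankrd1, Acta2 and Actg1 increase with Ccn2 in mesenchymal-like cells (Acta2 from 3.98 to 12.6), while Yap1 stays between 0.0413 and 0.0638.

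Clustering the mesenchymal-like cells alone gave 5 sub-clusters. Sub-cluster 1 (1036 cells, 52.8%) was led by F3, Acta2, Gadd45g, Myl9 and Cavin3 and held the most of all 3 targets: Ccn2 at 1549 CPM (1508 to 1591), Ccn1 at 497 CPM (474 to 521) and Ankrd1 at 91.6 CPM (81.8 to 102). Ccn2 was itself among its 10 leading genes, so these levels describe the sub-cluster, although Ccn2 and the contractile genes were held out of the clustering. Sub-cluster 2 (590 cells, 30.1%), led by Fut9, Cp and Nav3, held 698 CPM of Ccn2 (661 to 737), 286 CPM of Ccn1 and 42.1 CPM of Ankrd1 (33.4 to 52.5), the last not above the 47.6 CPM of epithelial-like cells. Acta2 stood at 7236 CPM in sub-cluster 1 and 2237 CPM in sub-cluster 2. Yap1 went the other way, at 28.7 CPM (23.3 to 34.9) in sub-cluster 1 and 46.9 CPM (37.6 to 57.8) in sub-cluster 2, with intervals apart.

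The other sub-clusters were small. Sub-cluster 3 (210 cells) was led by Ly6d, Gpx2, Wfdc18, Spink5 and Krt6a, several of them genes of stratified epithelium, had a median of 4423 UMIs and an Epcam UMI in 78.6% of its cells. It held Ccn2 at 665 CPM and Ccn1 at 256 CPM. Doublets were not removed, and their part in sub-cluster 3 was not tested; the Ccn2 level was 1218 CPM (1190 to 1247) in the 1739 mesenchymal-like cells without an Epcam UMI and 732 CPM (679 to 788) in the 222 cells with one. Sub-cluster 4 (74 dividing cells, led by Hmmr and Plk1) held Ccn2 at 907 CPM and Ccn1 at 433 CPM. Sub-cluster 5 (51 cells, led by Defb3 and Thbs2) combined Ccn2 at 1097 CPM (957 to 1253) with Ccn1 at 150 CPM (101 to 215) and 1 Ankrd1 UMI (5.01 CPM, 0.127 to 27.9). In all 5 sub-clusters Ccn2 was above its epithelial-like level. The lowest of them, 665 CPM (613 to 719), was still above the 162 CPM of the highest epithelial-like cluster.

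**Figure D5:**
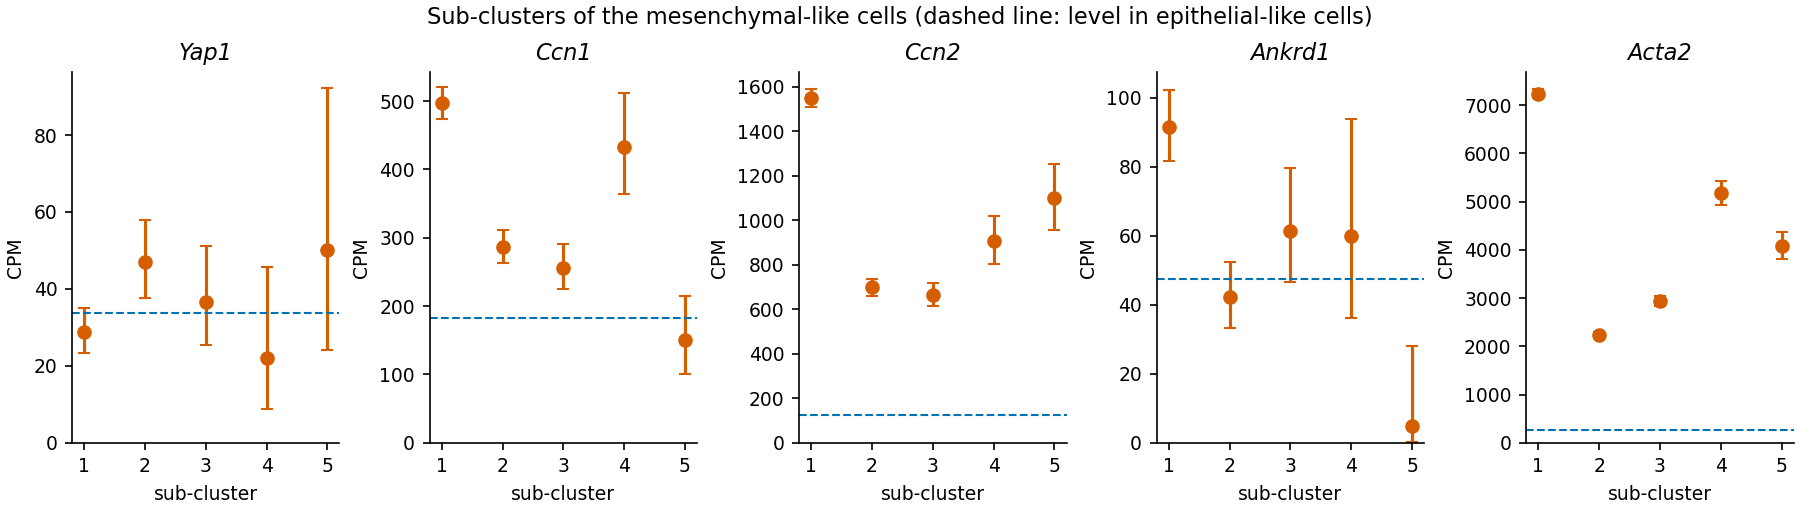
Level (CPM, y axis) of the 4 genes and Acta2 in the 5 mesenchymal-like sub-clusters (x axis), with exact 95% Poisson intervals; the dashed line is the level in epithelial-like cells. Ccn2 lies above the line in every sub-cluster (665 to 1549 CPM), whereas Ankrd1 lies above it only in sub-cluster 1 beyond its interval.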

How the data were processed

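UMI counts per gene and barcode, whole numbers and not normalized, were deposited by the authors, and the matrix names CellRanger 8.0.1 as its writer, per the file headers. The annotation behind the counts is not given in the sources used here, and mm10 and Scanpy 1.8.2 are named per the submitters' processing notes. The labels list 3 libraries of the culture (gene expression, barcodes, scar regions). Neither header nor labels say which of them supplied the matrix, so it was treated as 1 pooled sample, with no test and no p-value.

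Barcodes with at least 500 genes, 1000 UMIs and at most 20% mitochondrial UMIs were kept (14925). Scrublet in scanpy 1.11.5 (expected rate 5%) called 1 of them, 0.0067%, too few for a working call, so doublets were taken as not removed apart from that cell. Leiden clustering (igraph 0.11.9; 2000 variable genes, 30 principal components, 15 neighbours, resolution 0.6, or 0.4 for sub-clusters) left out 109 genes: the 4 genes and the lists. A cluster was named from marker UMIs: mesenchymal-like where mesenchymal markers gave at least 50% of them, with at least 3 markers in at least 25% of cells, 50 cells and a median depth of at least 50% of that of all kept cells. This scoring was set after the clusters were seen. The members, gene lists and markers were chosen with earlier results of these data known.

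CPM values were computed from summed deposited counts with exact 95% Poisson intervals, ratios with exact conditional binomial intervals, and shares with Clopper-Pearson intervals. In ratios a set with fewer than 3 UMIs counted as 3. Shares, variances and correlations used cells thinned to 1500 UMIs (13280 cells, 1644 left out: 1088 epithelial-like, 35 mesenchymal-like, the rest unnamed). Genes were named by a rule: the 4 genes, up to 4 called genes with the largest ratio per list and direction, the 10 with the highest r, leading genes and markers; other list genes were named after their values were seen. A few genes that the rule names are not reported here. The calling and correlation steps were tested on simulated data. Alternatives covered the cell filter, doublet scores, resolution, variable genes, held-out genes, class definition, thinning depth and seed, rank correlation and the ratio of a call.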

Additional observations from a re-analysis of the deposited data

How the results depend on the processing

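No paired analysis was possible because the data are 1 matrix of 1 sample. None of the alternatives run on the mesenchymal-like to epithelial-like ratios of the 4 genes reversed a call; the contrast of dividing with other epithelial-like cells was run at the main setting only. Over 13 alternatives the ratio of mesenchymal-like to epithelial-like levels ran from 8.25 to 9.71 for Ccn2, 2.07 to 2.30 for Ccn1, 1.30 to 1.49 for Ankrd1 and 0.995 to 1.08 for Yap1, with 938 to 1051 features called higher and 813 to 999 lower. Of these, 2 were added after seeing the data (the unnamed cluster counted as epithelial-like, and sub-cluster 3 left out). With 1000 genes and 2000 UMIs required, Yap1 over all kept cells was 33.2 CPM and Ccn2 292 CPM; leaving out the top 10% of doublet scores, Ccn2 was 285 CPM. Calling at a ratio of at least 1.5 gave 2 YAP partners lower (Tead3, Vgll4), 5 Hippo genes higher and 5 lower, 3 other targets lower, 1 immediate early gene higher (Dusp1) and 8 TGF-beta genes higher. Without the dividing cluster, 3 TGF-beta genes were called higher. The r of Ccn1 with Ccn2 grew with depth: in epithelial-like cells it was 0.0962 at 1000 and 0.149 at 2500 thinned UMIs, and in mesenchymal-like cells 0.356 at 2500. Of the other pairs, Ccn1 with Ankrd1 had 0.0457 and 0.1004 at these depths in epithelial-like cells and 0.136 at 2500 in mesenchymal-like cells, Ccn2 with Ankrd1 0.0708 at 2500 and Yap1 with Ccn1 0.00395 at 1000 in epithelial-like cells. At resolution 0.8 the highest Ccn2 level of a sub-cluster was 2005 CPM. Calling at 1.5 gave 9 other targets and 8 SRF and contractile genes higher, and leaving out mesenchymal-like cells with an Epcam UMI gave 8 and 7. The values that moved, 14 that answer a comparison and 5 others, are given above. The other 142 and 63 planned and the 13 and 5 added values did not move by the rule for their kind. Levels had to stay within their counting interval and counts of genes within 1.5 times. An r had to stay within an interval set by the number of cells. Ratios only had to keep their call, and some left the counting interval of the main setting. At the ends of their ranges, Ccn2 had 8.25 and 9.71 against 8.71 to 9.36. Ccn1 had 2.30 against 2.06 to 2.25, and Ankrd1 had 1.30 against 1.32 to 1.62. Depth limits all single-cell values here, since most cells hold no UMI of Yap1, Ankrd1 or Ccn1.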

Other observations

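Chemokine genes were among those with the lowest r to the targets, beside genes of other kinds such as Nupr1, Cebpb and, in epithelial-like cells, ribosomal protein genes (Rps14, -0.0818 with Ccn1). In mesenchymal-like cells the lowest r with Ccn1 were those of the monocyte-attracting chemokines Ccl7 (-0.191) and Ccl2 (-0.135), and the lowest with Ccn2 were those of the neutrophil-attracting chemokine Cxcl5 (-0.184) and of Ccl7 (-0.177). Mean Ccl2 was 2.79 UMIs per thinned cell in mesenchymal-like cells without a Ccn2 UMI and 1.44 in those with 4 or more. In epithelial-like cells Cxcl5 (-0.105) and Ppbp (-0.0837) had the lowest r with Ccn2, while with Ankrd1 the same genes were among the 10 highest (0.069 and 0.0734). The lowest r with Ankrd1 in epithelial-like cells belonged to Ptma (-0.0964), a chromatin-associated protein of growing cells, and Fxyd3 (-0.0575), a leading gene of cluster 7. These are correlations over cells of 1 culture, chosen after the values were seen.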
